A study of Mus musculus with 18 samples.

Results

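The 6 arrays described here followed the kidney transcriptome of CD1 mice, which are outbred, through constant hypoxia. They were chosen by their titles, which place 6 of the 18 arrays of the series in chronic constant hypoxia. Pups entered the chamber on postnatal day 2 and breathed 11% oxygen without interruption for 1 week (arrays C1A and C1B), 2 weeks (C2A and C2B) or 4 weeks (C4A and C4B). The comparison groups were litter-split mice kept for the same times in normal air (6 arrays, N) or in intermittent hypoxia, where oxygen alternated between 21% and 11% (6 arrays, I). The labels name no genetic change and no drug in any group. Age and time in hypoxia advance together, so within these 6 arrays they cannot be told apart.

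Each array was a two-colour cDNA slide on which kidney cDNA of 1 animal labelled male, in Cy5, met that of 1 animal labelled female, in Cy3, both from the same group. The deposited value is the log2 ratio of the channels, and no source used here gives its numerator. Unless another scale is named, values below are log2 channel ratios after the median of the array was subtracted, and their signs carry no statement about sex. A transcript that responded to hypoxia equally in both animals leaves the ratio where it was, so a course here is a course of the difference between the animals sharing a slide. Whole kidneys were used, so fewer cells of a type and less RNA per cell cannot be told apart. The labels name different animals for each array, and n is 2 arrays at each time.

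Cells sense low oxygen through the hypoxia-inducible factors (HIF). In normal air the prolyl hydroxylase encoded by Egln1 marks the HIF alpha subunit and the protein encoded by Vhl leads it to destruction, while in low oxygen the subunit pairs with the Arnt protein and switches on genes of glycolysis, iron uptake and angiogenesis. The mouse kidney is still forming nephrons in the first days after birth, and its tubules then mature in the weeks that these arrays cover. The mature mouse kidney is also known for large differences between males and females, many of them driven by androgens in the proximal tubule.

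The arrays differed in quality, and this touches every result below. Values were present for 81.8% to 88.8% of 16128 probes, and 5751 features (4109 genes and 1642 probes with no single gene symbol) were measured well enough across the series to be tested. Array C4A stood apart, with an SD over features of 0.89 against 0.239 to 0.439 on the other 5. Its low values lay together: in the last 4 of 32 runs of 504 consecutive probe numbers (from probe number 14113), its median was -2.18 and 78.1% of its values were below -1.5. Medians of the same runs were -0.05 to -0.72 on the other arrays. Earlier runs were also uneven. In the first run the medians were -0.64 on C2A, -0.49 on C2B and -0.47 on C4A. In the run from probe number 12097 they were -0.41, -0.61 and -1.03. One treatment text of array C4A also gives 2 weeks, while its title gives 4. Eif2s3y, a gene of the Y chromosome, had ratios of 0.06 and 0.44 at 1 week, 1.32 and -0.64 at 2 weeks and 1.13 and 0.66 at 4 weeks. These values did not keep a single sign, although every array is labelled as a male against a female, and the part of this in the results was not tested.

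**Figure D1:**
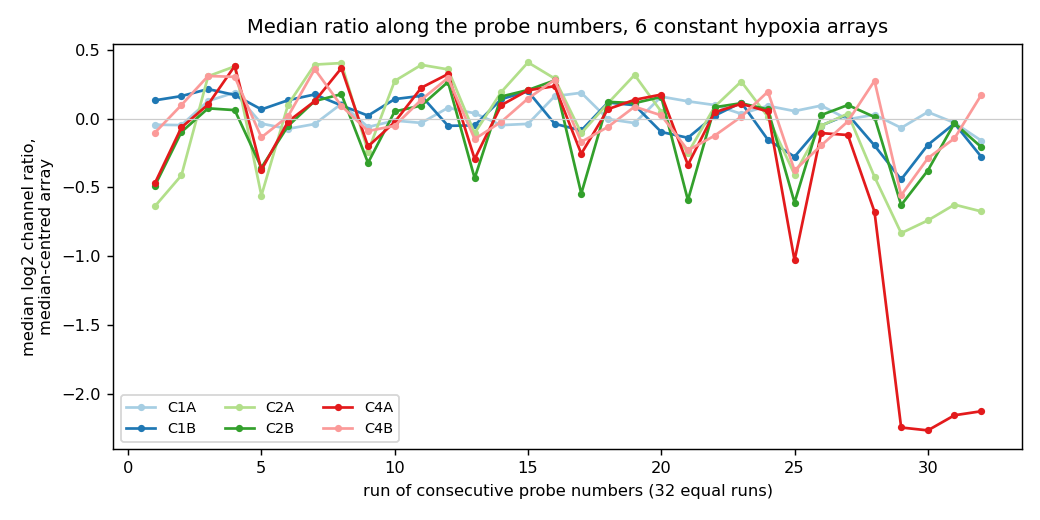
Median log2 channel ratio (vertical axis, median-centred) in each of 32 runs of 504 consecutive probe numbers (horizontal axis) on the 6 constant hypoxia arrays, 1 line per array. Array C4A drops in the last 4 runs, where its median over all values is -2.18, while the other arrays stay nearer 0 there. Other runs are also low, as is the first run on C2A (-0.64), C2B (-0.49) and C4A (-0.47).

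For this reason values that C4A or position moved are also given without C4A or after a position trend (a running median along the probe numbers within each run) had been removed from every array. The trend removal was chosen after the runs had been seen. Of the features with a single probe, the 637 numbered 14113 or higher had a median difference between 4 weeks and 1 week of -0.93 (log2), which was -0.06 without C4A and -0.01 after the trend was removed. The 4472 features numbered below 14113 had a median of 0.

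The main comparison, 4 weeks minus 1 week, asked which ratios moved over the exposure. None of the 5751 features passed an adjusted p of 0.05 (0%), and the smallest adjusted p was 0.145. At an unadjusted p under 0.05 there were 585 features (10.2%). Without C4A, when C4B stands alone for 4 weeks and is assumed to vary like the other groups, the unadjusted count was 235 and none passed adjustment. After the trend was removed it was 339, again with none passing. The median standard error of a difference was 0.295, or 0.216 with the trend removed. The median difference between 4 weeks and 1 week regardless of sign was 0.231, while the arrays of the same time differed from each other by a median of 0.221 at 1 week, 0.212 at 2 weeks and 0.286 at 4 weeks. The first of these is a difference between means of 2 arrays and the others are differences between single arrays. Both 4-week arrays lay above both 1-week arrays for 1007 of 5235 features measured on all 6 arrays (19.2%) and below them for 1113 (21.3%). With the trend removed these counts were 1059 (20.2%) and 960 (18.3%). The difference was positive for 2474 and negative for 3277 of the 5751 features, the background for the counts of positive list members below. Without C4A 2739 were positive, and with the trend removed 2688.

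Among the genes whose 1-week and 4-week arrays did not overlap, the 10 in each direction with the smallest p were followed. Slco3a1 encodes an organic anion transporter of the plasma membrane. Its ratio was -0.08 and 0.21 at 1 week, 0.03 and -0.05 at 2 weeks, and 1.86 and 1.66 at 4 weeks. The first 4 arrays lay near 0 and both 4-week arrays far above them, a difference of 1.70 ± 0.43 (SE, adjusted p = 0.422) that was 1.60 without C4A and 1.74 with the trend removed. Ube2o, an enzyme that attaches ubiquitin, had -0.33 and -0.11 at 1 week, -0.02 and -0.21 at 2 weeks, and 1.42 and 0.90 at 4 weeks. It differed by 1.38 ± 0.33 (SE, adjusted p = 0.422), and by 1.12 without C4A. Fkbp5, a partner of the Hsp90 chaperone that glucocorticoids induce, had -0.32 and -0.11, then -0.53 and -0.11, then 0.96 and 0.57. Here too the 1-week and 4-week arrays did not overlap. The difference was 0.98 ± 0.28 (SE), 0.79 without C4A and 1.26 with the trend removed. On that last scale Fkbp5 had -0.13 and -0.13, then 0.19 and 0.42, then 1.43 and 0.83, so its 2-week values lay between the others.

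Slc25a39, which carries glutathione into mitochondria, had its own highest values at 4 weeks. Its ratio was 0.00 and 0.16 at 1 week, 0.28 and 0.16 at 2 weeks and 1.19 and 1.16 at 4 weeks, a difference of 1.10 ± 0.26 (SE) and of 1.08 without C4A. Chst11, a chondroitin sulfotransferase, stood 1.06 ± 0.25 (SE) higher at 4 weeks, and Apcdd1, an inhibitor of Wnt signalling, 0.84 ± 0.22. The others on the high side were Cib1 (1.10), Litaf (0.92), the nucleic acid binding protein gene Ybx1 (1.37) and Agps (1.12), which acts in ether lipid synthesis. The probes of Cib1 and Litaf are near neighbours, numbered 7723 and 7726, and the part of position in their similar courses was not tested. All 10 had adjusted p = 0.422, and each kept a difference above 0.59 both without C4A and with the trend removed.

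On the low side, Msmo1 had the smallest adjusted p of these genes, 0.208. It encodes a methyl oxidase of cholesterol synthesis. Its ratio was 0.27 and -0.12 at 1 week, -0.88 and -0.61 at 2 weeks, and -1.49 and -0.96 at 4 weeks. Both 4-week arrays were the lowest, and the difference of -1.30 ± 0.26 (SE) was -1.04 without C4A and -1.0 with the trend removed. On that last scale the 2-week arrays of Msmo1 lay apart, at -0.70 and 0.05, after 0.17 and 0.03 at 1 week. Acot7, a thioesterase that releases fatty acids from coenzyme A, had -0.45 and -0.67 at 1 week, -1.31 and -0.75 at 2 weeks and -5.60 and -2.22 at 4 weeks. Its probe lies in the last runs of C4A, and the difference of -3.35 ± 0.81 (SE) became -1.66 without C4A and -1.74 with the trend removed. Efhd1, a calcium-binding protein of mitochondria, differed by -1.16 ± 0.32 (SE), by -0.82 without C4A and by -1.02 with the trend removed.

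The other 7 low genes were all numbered 14113 or higher and shrank once position was taken into account. Ndufc2, a complex I subunit, went from -1.42 to -0.49 with the trend removed, Ilf2 from -1.23 to -0.31, Micos13 from -1.5 to -0.31 and Adgrf5 from -1.82 to -0.26. Dgka, a diacylglycerol kinase, went from -1.2 to -0.28, while Drr1 and the gluconeogenic enzyme gene Fbp2 kept -0.92 and -0.96 of -2.17 and -2.14. The probes of Ndufc2, Ilf2 and Dgka are near neighbours, numbered 14213, 14216 and 14219. Repeating the choice on the values with the trend removed gave 9 genes in common with the first choice, 6 high and 3 low. It added Sfxn1, Lap3, Amacr and Mkrn1 on the high side. On the low side it added Mgst1, Gsn, Acss1, Hspb1, Dclk3, Selenow and 4632427E13Rik. The largest of these was Mgst1, a membrane-bound glutathione transferase, with -0.10 and 0.26 at 1 week, -0.37 and 0.20 at 2 weeks, and -1.93 and -1.53 at 4 weeks. Its 4-week arrays stood apart from the other 4, with a difference of -1.81 ± 0.50 (SE) and -2.03 with the trend removed. Acss1, a mitochondrial enzyme that makes acetyl coenzyme A from acetate, differed by -0.86 ± 0.27 (SE) and by -1.12 without C4A.

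**Figure D2:**
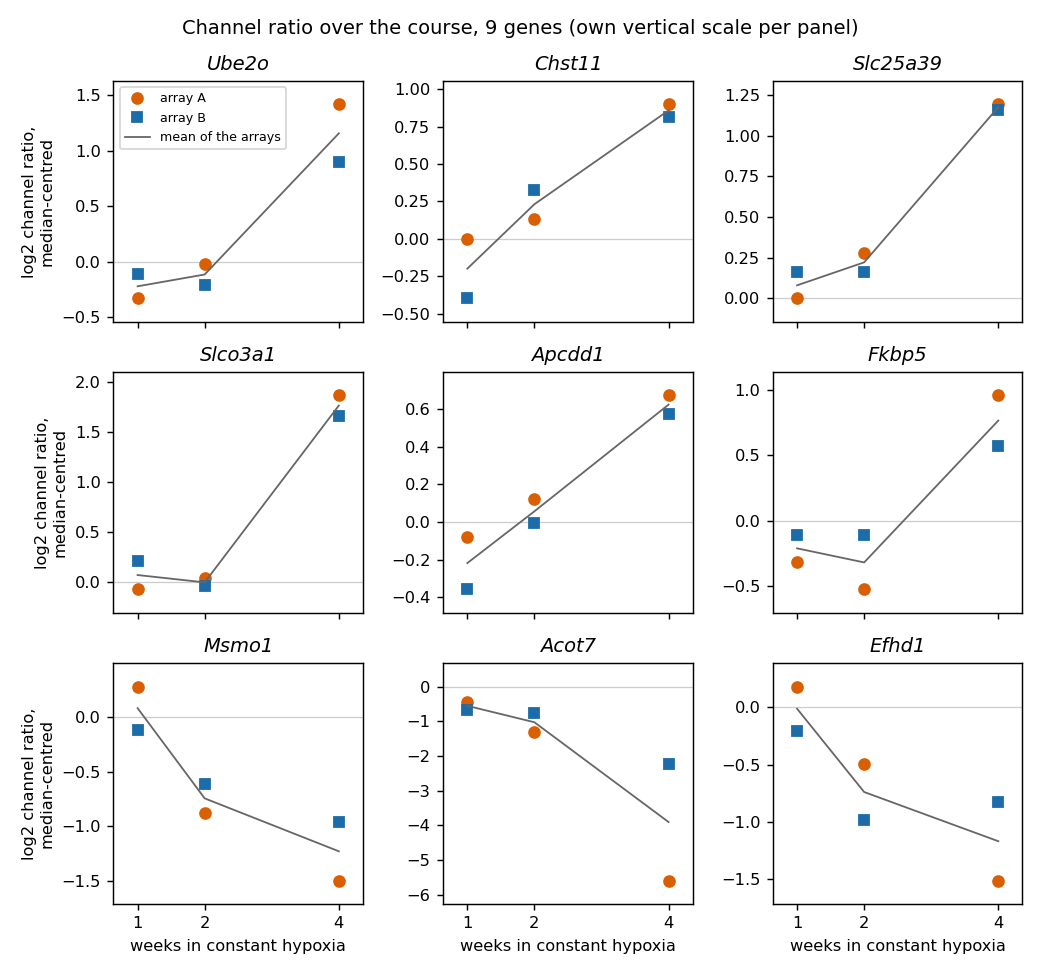
Log2 channel ratio (vertical axis, median-centred, own scale per panel) against weeks in constant hypoxia for the 9 genes named under both choices; circles are arrays A, squares arrays B and lines their mean. In 6 genes both 4-week arrays lie above every 1-week array, and in Msmo1, Acot7 and Efhd1 below.

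Genes with 1 probe among the early numbers and another among the last ones showed the position pattern within a gene. For Top2a, a DNA topoisomerase of dividing cells, probe 13725 differed by 0.07 and probe 15038 by -1.56. Prdx4, a peroxiredoxin, had -0.25 at probe 11544 and -1.71 at probe 15576. For Prpf31, a splicing factor, the values were -0.48 at probe 2450 and -1.54 at probe 14477. The late probe was the lower one in each of these 3 genes, which were picked by their values.

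The steps of the course were tested separately. From 1 to 2 weeks no feature passed (0%), with 220 at an unadjusted p under 0.05 (3.83%). The step from 2 to 4 weeks gave none (0%), with 285 unadjusted (4.96%). Any change over the 3 times also gave none (0%), with 370 unadjusted (6.43%). With all arrays of a time above or below those of the next, 111 features were ordered upward through 1, 2 and 4 weeks (2.12%) and 58 downward (1.11%). Of these, 30 features kept the order with the trend removed. They include Egln1, Igfbp4 and Grhpr in the upward order and Cdk8, Psmd10 and Cavin1 in the downward order. Igfbp4, a binding protein of insulin-like growth factors, had -0.53 and -0.27, then -0.16 and -0.23, then 0.31 and 0.35. Cdk8, a kinase of the Mediator complex, had 0.05 and -0.05, then -0.35 and -0.15, then -1.70 and -0.91. These genes were picked out by the order of their values, which is a description and no test.

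A course that turned at 2 weeks was sought as the 2-week mean against the mean of 1 and 4 weeks. None passed (0%), with 196 unadjusted (3.41%), and every gene named here had adjusted p = 1. Of the negative turns the smallest p belonged to Phb2, a prohibitin of the inner mitochondrial membrane, and Rab7, a small GTPase of late endosomes. Phb2 had -0.31 and 0.02 at 1 week, -0.90 and -0.81 at 2 weeks and 0.19 and 0.24 at 4 weeks, a turn of -0.89 ± 0.21 (SE) that was -0.37 with the trend removed. Its values were then -0.15 and -0.06, -0.13 and -0.27, and 0.55 and 0.32. The turn was -0.86 ± 0.21 for Rab7 (-0.54 with the trend removed), -0.89 ± 0.23 for Ptpa (-0.61), an activator of a protein phosphatase, and -0.73 ± 0.18 for Cpsf6 (-0.30), a factor that shapes the ends of messenger RNA. The probes of these genes lie in runs that were low on both 2-week arrays. Run medians on C2A and C2B were -0.64 and -0.49 for Phb2, -0.56 and -0.36 for Rab7 and Cpsf6, and -0.25 and -0.59 for Ptpa. In the other direction stood Cryab, a small heat shock protein (0.81 ± 0.29), Spp2 (0.57 ± 0.21), Shkbp1 (0.50 ± 0.19) and 4932435O22Rik (0.47 ± 0.18), which came to 0.54, 0.52, 0.25 and 0.21 with the trend removed. Cryab had -0.50 and -0.18, then 0.08 and 0.21, then -1.11 and -0.87, so its 4-week arrays were the lowest of the 6.

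Apart from single contrasts, the arrays differed in how many ratios stood far from 0 on both replicates. With the trend removed, both arrays lay beyond 0.5 with the same sign for 7 of 5577 features at 1 week (0.126%), 6 of 5734 at 2 weeks (0.105%) and 140 of 5335 at 4 weeks (2.62%). The arrays of a time pointed in opposite directions beyond 0.5 for 2, 5 and 5 features. Beyond 1 the same-sign counts were 0 (0%), 1 (0.0174%) and 18 (0.337%). The 4-week arrays also had the wider spread with the trend removed, 0.353 and 0.282 against 0.184 to 0.219. Scaled to a common spread, the counts beyond 0.5 were 17 (0.305%), 53 (0.924%) and 118 (2.21%). Before the trend was removed they were 23 (0.412%), 534 (9.31%) and 512 (9.6%). In the other groups the count with the trend removed was 79 (1.44%), 134 (2.85%) and 19 (0.348%) at 1, 2 and 4 weeks of normal air and 38 (0.687%), 39 (0.93%) and 50 (0.939%) in intermittent hypoxia. Unscaled, the share at 2 weeks of normal air was thus above that of 4 weeks in constant hypoxia. Scaled to a common spread it was below, with 61 (1.3%) against 118 (2.21%). The correlation between replicates across features with values on both arrays, which share slides and are not independent, was 0.24 at 1 week, 0.63 at 2 weeks and 0.46 at 4 weeks as centred, and -0.02, 0.25 and 0.44 with the trend removed.

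**Figure D3:**
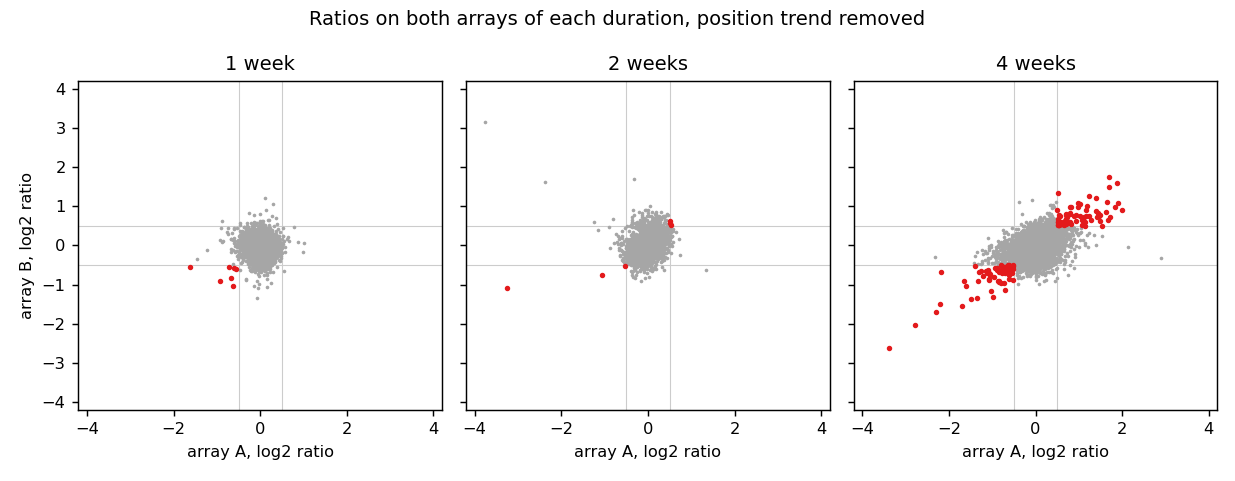
Log2 channel ratio on array A (horizontal axis) against array B (vertical axis) at each time with the position trend removed; each point is a feature, and red points lie beyond 0.5 with the same sign on both arrays. There are 7 red points at 1 week, 6 at 2 weeks and 140 at 4 weeks.

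Of the 140, the 134 measured on all 6 constant hypoxia arrays comprised 74 positive features (50 genes) and 60 negative ones (44 genes). They were chosen by their 4-week values, so those values are given as description, and all values of these features are with the trend removed. At 1 week their medians were -0.01 and -0.11, at 2 weeks -0.05 and -0.19, and at 4 weeks 0.81 and -0.81. On the positive side beyond 1 on both arrays stood Slco3a1, Ube2o, Atp11a, a lipid flippase (1.70 and 1.75), Amacr, which handles branched fatty acids in peroxisomes (1.90 and 1.08), and the lysosomal sialidase gene Neu1 (1.02 and 1.05). On the centred scale Atp11a, with a late probe, had 0.04 on C4A and 1.72 on C4B, and its difference between 4 weeks and 1 week was 0.89. Lower on the same side were several enzymes of metabolism, among them Ces1f (2.00 and 0.90), a carboxylesterase, Ephx2 (1.03 and 0.74), an epoxide hydrolase, Cbs (0.80 and 0.81), which acts on homocysteine, and Crot (1.71 and 0.73), which transfers medium-chain fatty acids to carnitine. Negative beyond 1 were Mgst1, Acot7, Fbp2, the carboxylesterase gene Ces1d (-1.04 and -1.17) and Hsd3b1 (-1.70 and -1.54), a steroid dehydrogenase of the adrenal and gonad. Wfdc2 (-0.98 and -1.31) and the actin-severing protein gene Gsn (-0.71 and -1.14) followed.

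Those 134 features were then read on the other arrays. On N4B, an array of normal air at 4 weeks, 76 of the 129 with a value lay beyond 0.5 with the same sign and 3 with the opposite sign. On its replicate N4A these counts were 7 and 4 of 134. Of the intermittent hypoxia arrays at 4 weeks, I4A had 1 and 3 of 132, and I4B had 1 and 45 of 128. On the centred scale Slco3a1 was 1.48 on N4B and -0.36 on N4A, and Atp11a 1.93 and -0.14. Eif2s3y was 1.64 on N4B, 0.06 on N4A, 0.10 on I4A and -1.63 on I4B, and the part in these counts of whatever sets that gene's ratio was not tested. The same signs were thus also found on 1 array of normal air.

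**Figure D4:**
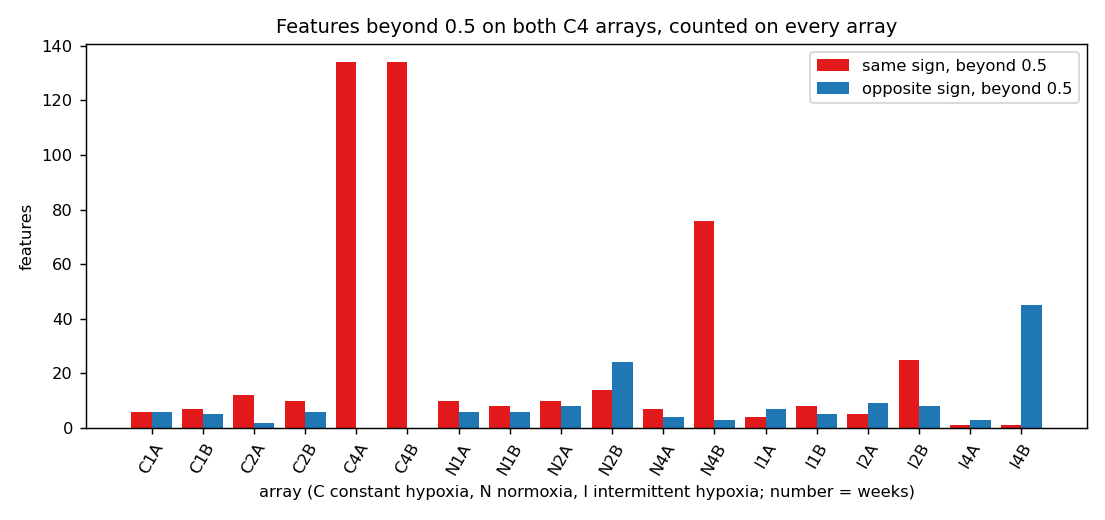
Number of features (vertical axis) among the 134 with ratios beyond 0.5 on both C4 arrays that lie beyond 0.5 with the same sign (red) or the opposite sign (blue) on each of the 18 arrays (horizontal axis), trend removed. C4A and C4B hold 134 by construction, N4B holds 76 with the same sign and I4B 45 with the opposite sign.

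Genes that androgens regulate in the mouse kidney were few on the list but lay on 1 side. All 5 measured of 10 had positive differences between 4 weeks and 1 week, with a median of 1.08 (0.75 without C4A, 0.95 with the trend removed) against -0.05 over all features. None of the 5 passed adjustment (0% of all features did), and 2 had an unadjusted p under 0.05, as did 10.2% of all features. In normal air the median of the same 5 was 0.58. Odc1, the first enzyme of polyamine synthesis, had -0.24 and 0.21 at 1 week, 0.17 on C2A and no value on C2B, and 1.90 and 1.58 at 4 weeks. Both 4-week values were far above the rest, a difference of 1.75 ± 0.53 (SE, adjusted p = 0.422). Timd2 had 1.30 and 0.64 at 4 weeks after -0.24 and 0.03 at 1 week, and Slc22a7, an organic anion transporter, 0.66 and 0.75 after 0.13 and 0.22. Gusb, a lysosomal glucuronidase, differed by 0.11 ± 0.34 (SE). The list was drawn up with results of these data known, and its direction is no independent evidence.

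Of the HIF system and its targets outside glycolysis, 11 of 30 genes were measured, and 3 of the 11 had positive differences with a median of -0.11. None passed adjustment and 3 had an unadjusted p under 0.05 (10.2% of all features did). Egln1, which limits HIF, had -0.05 and -0.06 at 1 week, 0.25 and 0.07 at 2 weeks and 0.45 and 0.33 at 4 weeks, without overlap between neighbouring times. Its difference was 0.44 ± 0.24 (SE, adjusted p = 0.58), or 0.27 with the trend removed. Hif1a, the oxygen-regulated subunit itself, had 0.37 and 0.56 at 1 week, -0.06 and -0.05 at 2 weeks, and 0.14 and -0.30 at 4 weeks, a difference of -0.55 ± 0.32. Igfbp3, a binding protein of insulin-like growth factors, stood at -0.03 and -0.31 at 1 week and -0.91 and -0.66 at 4 weeks, a difference of -0.61 ± 0.26. Vhl and Tfrc, the transferrin receptor, had -1.76 and -1.23, but each has a late-numbered probe, and without C4A the values were -0.41 and -0.16. Adm, Arnt, Bnip3 and Kdm3a differed by -0.03 to -0.11, and the other positive members, Bnip3l and Ndrg1, by 0.25 and 0.32.

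The core of the HIF binding motif was looked for in RefSeq promoters (GRCm38.p6, 250 bases before to 50 after the gene start) because Egln1 had an ordered course. The letters ACGTG, on either strand, occurred in 4 of 9 HIF list genes with a sequence (44.4%), in 4 of 9 glycolysis genes (44.4%) and in 5315 of all 27025 promoters (19.7%). Matches may overlap, as in CACGTG, which reads the same on both strands. The promoters of Egln1 (chr8:124949205-124949504, minus strand, 1 match) and of the glycolytic gene Pgk1 (chrX:106186850-106187149, plus strand, 2 matches) are shown 5′ to 3′ with the matches in capitals.
Egln1: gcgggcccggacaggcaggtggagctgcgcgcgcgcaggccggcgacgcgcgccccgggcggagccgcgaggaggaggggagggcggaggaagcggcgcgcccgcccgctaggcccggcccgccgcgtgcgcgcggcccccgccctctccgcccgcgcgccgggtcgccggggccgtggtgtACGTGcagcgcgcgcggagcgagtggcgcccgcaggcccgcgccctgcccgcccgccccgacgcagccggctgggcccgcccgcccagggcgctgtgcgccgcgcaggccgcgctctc
Pgk1: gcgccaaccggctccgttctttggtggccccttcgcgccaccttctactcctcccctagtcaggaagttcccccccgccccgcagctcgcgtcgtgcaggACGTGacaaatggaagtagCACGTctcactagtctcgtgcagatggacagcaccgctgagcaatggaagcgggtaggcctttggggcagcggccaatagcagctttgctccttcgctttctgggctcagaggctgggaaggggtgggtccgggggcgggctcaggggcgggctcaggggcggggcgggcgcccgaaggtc
A match is a string of letters and not a measured binding site. The HIF list was made up of the HIF system and its targets, so its share of matches says nothing about the course of Egln1.

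In glycolysis 9 of 23 genes were measured and 6 had positive differences, with a median of 0.37 (0.13 without C4A). None passed adjustment, and none had an unadjusted p under 0.05. Pgk1, phosphoglycerate kinase, had -0.01 and -0.03 at 1 week, 0.26 and -0.14 at 2 weeks and 0.30 and 0.50 at 4 weeks, a difference of 0.43 ± 0.23 (SE), or 0.23 with the trend removed. Pgam1, phosphoglycerate mutase, had 0.62 and 0.56 at 4 weeks against -0.06 and 0.50 at 1 week, so its arrays came close to overlapping. For Ldha, lactate dehydrogenase, the difference of 0.50 ± 0.35 rested on C4A (1.01 against 0.12 on C4B) and was 0.06 without it.

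Mitochondrial genes took no common direction. In the tricarboxylic acid cycle 13 of 21 measured genes were positive (median 0.18, 0.01 without C4A), with Me1, the cytosolic malic enzyme, at 0.80 ± 0.36 (SE), Sucla2 at -0.49 ± 0.22 and Sdha at -0.81 ± 0.43. Sucla2 and Sdha include late probes, and came to -0.28 and 0.14 without C4A and to -0.01 and -0.05 with the trend removed. For oxidative phosphorylation 17 of 41 were positive, with a median of -0.12. Cox7a2, a cytochrome oxidase subunit, had -0.40 and -0.39 at 1 week but 0.51 and 0.09 at 4 weeks. With the trend removed these values were -0.33 and -0.29, then 0.26 and -0.08. Ndufb11, a complex I subunit with a late probe, went from -1.24 to -0.16 without C4A and to -0.47 with the trend removed. In fatty acid oxidation 10 of 21 were positive (median -0.06). The differences of Etfdh (-1.23), Echs1 (-1.08) and Hadhb (-1.03) came to -0.41, -0.03 and -0.12 without C4A. With the trend removed they were 0.001, -0.31 and -0.53. Mitochondrial ribosomal proteins had 22 of 36 positive and a median of 0.17, which was 0.18 without C4A. It was 0.165 with the trend removed and 0.047 with the trend removed and C4A left out. Both 4-week arrays lay above both 1-week arrays for 11 of the 35 measured on all arrays and below for 9, beside 19.2% and 21.3% of all features. Mrpl23 differed by -0.72 ± 0.25, and Mrpl50 and Mrps11 by -1.49 and -1.29, both with late probes (-0.59 and -0.32 without C4A).

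Among antioxidant genes 11 of 20 were positive (median 0.07). Mt2, a metallothionein that binds zinc, had -0.14 and 0.74 at 1 week, 1.25 and 0.05 at 2 weeks and -1.88 and -0.36 at 4 weeks, a difference of -1.42 ± 0.51 (SE) and of -0.66 without C4A. Replicates of this gene lay about as far apart as the times did. Prdx4 differed by -0.98, with its probes at odds as given above.

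Of the transport genes, Sgk1, a kinase that aldosterone induces and that raises sodium uptake, had -0.27 and 0.18 at 1 week, -1.03 and -1.19 at 2 weeks and -1.19 and -0.98 at 4 weeks. On this scale the arrays of 2 and 4 weeks lay together below both 1-week arrays. The difference of 4 weeks minus 1 week was -1.04 ± 0.31 (SE, adjusted p = 0.422), or -0.94 without C4A. With the trend removed Sgk1 had -0.11 and 0.07, then -0.28 and -0.76, then -0.86 and -0.92. The 2-week values then lay between those of the other times, and the difference was -0.87. Atp6v1g1, a proton pump subunit, differed by 0.70 ± 0.23 (0.38 with the trend removed) and the calcium-binding protein gene Calb1 by -0.34 ± 0.29. The probes of Atp6v1g1 and Cox7a2 are near neighbours, numbered 5895 and 5898, and the part of position in their differences was not tested. In the list of ion pumps and channels 7 of 9 measured genes were positive, with a median of 0.19. Among 6 solute carriers and apical receptors 3 were positive. Slc15a2, a peptide transporter, differed by -0.55 ± 0.54 and Lrp2, the endocytic receptor megalin, by 0.13 ± 0.23. For 5 measured genes of kidney injury all differences were below 0 with a median of -0.38, including Clu (-0.38 ± 0.27), Anxa2 (-0.49 ± 0.35) and Krt8 (-0.34 ± 0.27), which has a late probe. Without C4A 1 of the 5 was positive and the median was -0.19, with Clu at -0.28, Anxa2 at -0.18 and Krt8 at 0.10. After the trend was removed 1 of the 5 was positive and the median was -0.44. In normal air the median of the same 5 was -0.51.

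Growth genes showed 5 of 12 progenitor and fetal genes positive (median -0.07) and 12 of 28 cell cycle genes (median -0.02). Igf2r, which clears insulin-like growth factor 2, had -0.39 and 0.04 at 1 week, -0.49 and -0.09 at 2 weeks and 0.63 and 0.43 at 4 weeks, a difference of 0.71 ± 0.24 (SE) and of 0.61 without C4A. Igf1r and Wnt4, each with a late probe, had -1.11 and -0.88, and -0.06 and 0.34 without C4A. Stmn1, a microtubule regulator of dividing cells, differed by 0.64 ± 0.27 and Cdk4, a kinase of cell cycle entry, by 0.48 ± 0.22. Of 26 matrix genes 13 were positive (median 0.01), with Col4a1, a basement membrane collagen, at 0.48 ± 0.24, Nid2 at 0.60 ± 0.30 and Lamc1 at -0.60 ± 0.32. Lamc1 has a late probe, and came to 0.01 without C4A and 0.14 with the trend removed, where Nid2 was 0.30.

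Protein synthesis and turnover lists are given beside all features, of which 2474 of 5751 were positive with a median of -0.05. Ribosomal proteins had 25 of 66 positive (median -0.08), with Rpl12 at -1.23, Rps2 at 0.82 and Rps27l at -0.63. Rpl12 and Rps27l have late probes, and were -0.13 and -0.36 without C4A and -0.03 and -0.12 with the trend removed. Translation factors had 19 of 38 (median 0.00), with Eef2, the elongation factor, at 0.68 ± 0.25, Eif5a at 0.65 ± 0.26 and Eif4h, with a late probe, at -1.24 ± 0.49. Without C4A these were 0.41, 0.61 and -0.26, and with the trend removed Eif4h was -0.04. Probes 3423 and 7455 of Eef2 differed by 0.74 and 0.79. Its probes 10480 and 14512 had no value on C4A and differed by 0.15 and 0.32, so the Eef2 mean rests on different probes from array to array. Chaperones had 21 of 40 (median 0.05), with Hspb1, a small heat shock protein, at -0.76 ± 0.24 and Pfdn1, with a late probe, at -1.37 ± 0.61, which was -0.17 without C4A and 0.20 with the trend removed. In the proteasome 19 of 32 were positive (median 0.10, 0.00 without C4A), with Psmd1 at 0.62 ± 0.25, Psmd2 at -0.66 ± 0.24 and Psmb1, with a late probe, at -1.25 ± 0.39. These were 0.26, -0.61 and -0.51 with the trend removed. Splicing factors had 14 of 45 positive and a median of -0.16, which was -0.06 both without C4A and with the trend removed. Their most negative named members, Sf3b1 (-1.54), Rbm39 (-0.88) and Prpf31 (-1.01), all include late probes and were -0.18, -0.29 and -0.27 without C4A. No list had a member that passed adjustment.

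**Figure D5:**
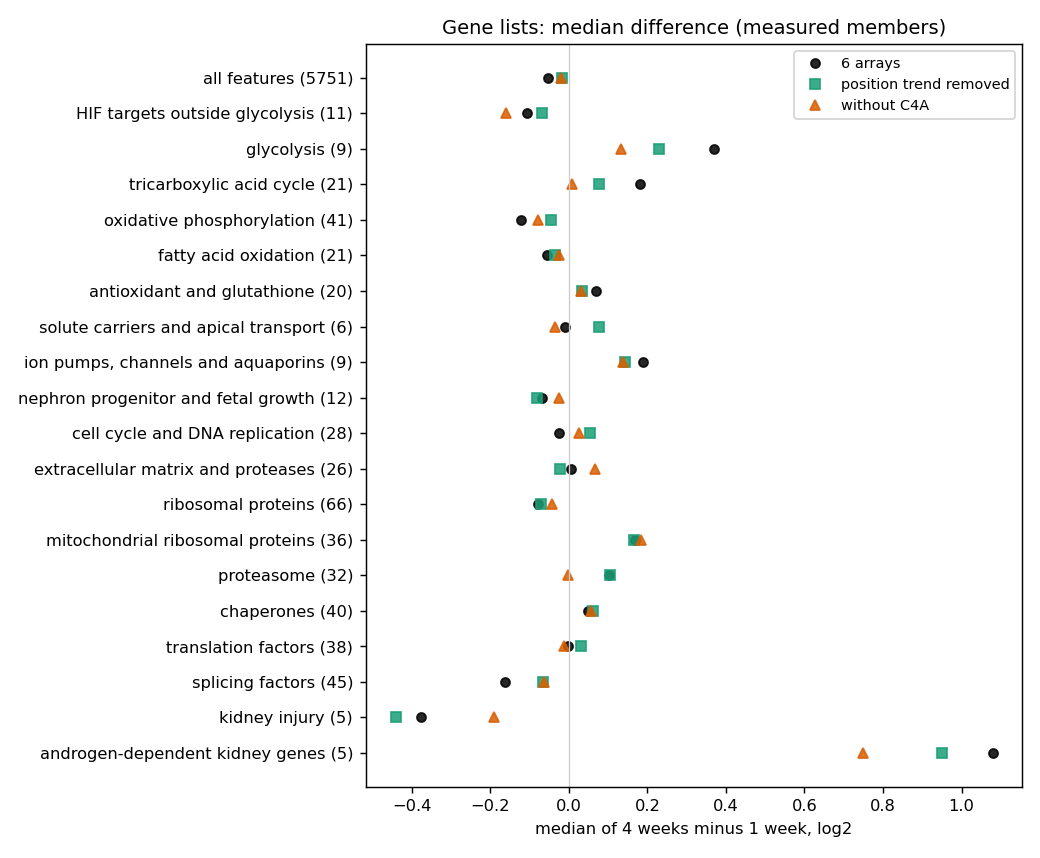
Median difference between 4 weeks and 1 week (horizontal axis, log2) for each gene list with at least 5 measured members (vertical axis, number measured in parentheses): all 6 arrays (circles), position trend removed (squares) and without C4A (triangles). Androgen-dependent kidney genes lie highest, at 1.08, 0.95 and 0.75, and most other lists within 0.2 of 0.

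Ratios hold no expression level, so the tissue itself could not be checked against its markers. Proximal tubule markers Lrp2 and Miox and podocyte markers Wt1 and Podxl had values, while no marker of the loop of Henle or of fat passed the filter. Some markers of other cells had large differences: Hsd3b1 of the adrenal gland differed by -2.82 ± 1.01 (SE) but had -3.00 and 1.30 on the 2-week arrays, and Hbb-y and Hbb-b1 of red cells differed by -1.09 and -2.15, or -0.70 and -0.81 without C4A. Nr5a1, another adrenal gene, differed by -0.10, Slc4a1 of red cells by 0.00, and the macrophage genes C1qa, C1qc and Lyz2 by 0.11 to 0.14. Endothelial Cdh5, Emcn and Pecam1 differed by -0.45, -0.19 and -0.03. Their part in the other results was not tested.

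The course in constant hypoxia was set against that in normal air by the interaction, which asks whether 4 weeks minus 1 week differed between them. No feature passed (0%), and 200 had an unadjusted p under 0.05 (3.48%). Tapbp, a chaperone of antigen loading, had 0.18 and 0.14 at 1 week and 0.27 and 0.37 at 4 weeks in hypoxia, against 1.37 and 0.73, then -0.36 and -0.09, in normal air. Both 4-week arrays of normal air lay below its 1-week arrays, while the hypoxia arrays of these times lay within 0.37 of 0, an interaction of 1.44 ± 0.34 (SE, adjusted p = 0.745). Ppp4c, a protein phosphatase, had an interaction of 1.25 ± 0.31 and Mrpl2 one of 1.10 ± 0.32, or 0.74 and 0.82 with the trend removed. Serpinb1a, a protease inhibitor, had 0.07 and 0.20, then -0.25 and -0.94, in hypoxia and -0.09 and -0.50, then 0.47 and 0.05, in normal air, an interaction of -1.28 ± 0.36. Cd24a, a surface protein of developing epithelia, had -1.87 ± 0.49 and Micos13 -1.79 ± 0.53, each with a late probe (-1.29 and -0.53 with the trend removed). For Slco3a1 the interaction was 1.86 ± 0.61 (adjusted p = 1) and for Mgst1 -1.48 ± 0.71. Against intermittent hypoxia no feature passed either (0%), with 543 unadjusted (9.44%), and Slco3a1 differed by 2.53 (adjusted p = 0.505).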

How the data were processed

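The values the authors deposited are log2 ratios, 1 for each probe on each array, and the labels describe direct Cy5 and Cy3 labelling of Trizol RNA. No source used here gives the background correction, the normalization or the ratio's direction. The base was read from the values: for 37.9% of 1800 sampled values, 2 raised to the value was a ratio of whole numbers (denominator up to 600, relative tolerance 1e-08), against 0.278% for base e and 0.389% for base 10. Signal and background were not used here, and the number of arrays limits the precision. Kept probes had values on 15 or more of the 18 arrays and on 1 of every group (6518 probes, 40.4%). Probes of 1 symbol were averaged (642 genes had several), using platform annotation matched to RefSeq. Of all probes, 9604 had 1 symbol and 213 several. Arrays were centred on their median.

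limma 3.58.1 in R 4.3.3 fitted 9 group means over all 18 arrays with eBayes. P-values are two-sided, adjusted by Benjamini-Hochberg over 5751 features, and called under 0.05. Groups of 2 share the spread of all groups. The fit was tested on simulated data. Named genes were the 10 per direction with the smallest p and no overlap for 4 weeks minus 1 week, 4 per direction for the turn, 3 per direction for the interaction with normal air, and 3 per list with 5 or more measured members. All needed values on the 6 arrays. The 10 per direction with the trend removed, and genes named for an ordered course, for large ratios at 4 weeks or for disagreeing probes, were added after their values were seen. Odc1, with 5 of 6 values, and other list members were also added. The members and lists were chosen with earlier results of these data known. Alternatives covered centring, scaling, filters, position, array weights, moderation, the replicate block and leaving out each array. The trend used a running median of 51 probes. The letters A and B did not pair the arrays.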

Additional observations from a re-analysis of the deposited data

How the results depend on the processing

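Differences between times had a median standard error of 0.295 from 2 arrays a time, and a difference as large as 1.70 (Slco3a1) did not pass. For 4 weeks minus 1 week the count of features past the threshold was 0 in the main analysis and ranged from 0 to 752 when 1 array was left out. The 752 (21 higher, 731 lower) came without C4B, where C4A stands alone for 4 weeks and is assumed to vary like the other groups. In the same way the count ranged from 0 to 588 for 4 minus 2 weeks, 0 to 646 for any change, 0 to 503 for the interaction with normal air and 0 to 658 for that with intermittent hypoxia, with the highest value always without C4B. It was 0 throughout for 2 minus 1 week and for the turn.

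On the values as deposited, whose array medians differ, 3586 features passed for 2 minus 1 week, 3905 for 4 minus 2 weeks, 3966 for any change, 4433 for the turn and 1 for the interaction with normal air. With the trend removed and the 6 arrays fitted alone, 6 passed for 4 weeks minus 1 week and 1 for any change. The 5 higher ones were Slco3a1, Odc1, Atp11a and probes 10873 and 7157, the lower one was probe 10820, and the one for any change was Slco3a1. With the trend removed and every feature measured on the 6 arrays kept, 4 passed for the interaction with normal air and 1 for that with intermittent hypoxia. The counts of features beyond 0.5 on both arrays were 23, 534 and 512 at 1, 2 and 4 weeks as centred, 7, 6 and 140 with the trend removed, and 17, 53 and 118 when also scaled. The cause of these changes was not tested. Counts under the other alternatives, including array weights, no moderation, scaling and each probe on its own, were 0 for the 7 comparisons.

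The arrays share only a letter, and correlations of same-letter deviations within constant hypoxia ran from -0.29 to 0.44. The fit with the replicate block gave 0 features for 4 weeks minus 1 week, with 594 unadjusted against 585 without the block, and 0 for the other comparisons.

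Named genes changed sign as follows, for 4 weeks minus 1 week unless stated. With the trend removed, on 18 arrays or on the 6 alone, Etfdh came to 0.001, Lrp2 to -0.008, Igf1r to 0.019, Wnt4 to 0.3, Lamc1 to 0.142, Pfdn1 to 0.205 and Krt8 to 0.375. Leaving out C4A as well gave Ldha -0.067, Sdha 0.02, Lrp2 -0.192, Igf1r 0.021, Wnt4 0.443, Lamc1 0.212, Pfdn1 0.021, Sf3b1 0.026 and Krt8 0.228. Keeping every feature measured on the 6 arrays, with the trend removed, gave Tfrc 0.211, Etfdh 0.051, Slc15a2 0.115, Lrp2 -0.042, Igf1r 0.019, Wnt4 0.286, Lamc1 0.251, Pfdn1 0.187 and Krt8 0.297. The longer running median gave Wnt4 0.23, Lamc1 0.035, Rps27l 0.596, Eif4h 0.027 and Krt8 0.907. Without the filter on missing values Slc15a2 was 0.164 and Krt8 0.093, and with values on the 6 arrays required they were 0.155 and 0.015. As deposited, the turn of Rab7 was 0.008 and that of Cpsf6 0.137. Leaving out 1 array at a time, Sdha ranged from -1.761 to 0.137, Lrp2 from -0.03 to 0.289, Wnt4 from -2.104 to 0.339, Top2a from -1.496 to 0.005, Lamc1 from -1.208 to 0.008, Krt8 from -0.785 to 0.1 and Gusb from -0.064 to 0.281.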

Other observations

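Some features with no single gene symbol had large courses. Probe 3329 had -1.77 and -0.39 at 1 week, -0.06 and 0.62 at 2 weeks and 1.61 and 1.61 at 4 weeks, and probe 1805 had -1.33 and -0.19, then 0.06 and 0.85, then 1.63 and 1.57. Both were ordered upward through the 3 times without overlap, with and without the position trend, and no test of that order was made. In normal air at 4 weeks probe 3329 had 0.82 on N4A and -1.5 on N4B.

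Further genes of lipid and amino acid metabolism stood beyond 0.5 on both 4-week arrays with the trend removed. Bcat1, which transaminates branched-chain amino acids, had 1.64 and 0.86. Acat1, a mitochondrial thiolase, had 1.68 and 0.65, and Scap, the escort of the sterol sensor, 0.70 and 0.68. Acaa2, another mitochondrial thiolase, had -0.96 and -0.81, and Elovl6, which lengthens fatty acids, -0.66 and -0.52. These genes were picked by their values, and none passed the test of 4 weeks minus 1 week (smallest adjusted p with the trend removed 0.224).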
